A study of Mus musculus with 6 samples.

Results

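The Polycomb repressive complex genes described here are Ezh1, Ezh2, Eed, Suz12, Jarid2, Rnf2, Ring1, Bmi1, Cbx7 and Kdm2b, taken by name from the deposited table of gene expression in mouse muscle satellite cells. All 10 were found among its 23420 genes, and all 10 passed the filter on low values. Polycomb proteins keep developmental genes silent by marking histones. Polycomb repressive complex 2 (PRC2) methylates lysine 27 of histone H3 (H3K27), and Polycomb repressive complex 1 (PRC1) attaches ubiquitin to histone H2A. In muscle stem cells, Ezh2 is known for holding back differentiation genes, and CpG-rich promoters lacking DNA methylation are the usual places where the complexes settle.

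Messenger RNA was sequenced from 3 control and 3 Dnmt1 KO samples of skeletal muscle satellite cells, the stem cells of muscle. Per the labels, the animals were male C57BL/6 mice aged 7 weeks, bred from Pax7-CreERT2 and Dnmt1 flox lines and given tamoxifen or vehicle on 5 consecutive days. Cre activity was thus tied to cells expressing Pax7, and the group that received vehicle, and the Cre status of the controls, were not given in the sources used here. Separate animals are not stated for the replicates of a group, so p-values measure only how these samples vary, which may be technical variation.

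Depth was low, at 1403242, 1437762 and 2021725 reads counted in genes in controls and 954786, 1347051 and 1102065 in knockouts. Every knockout library was thus shallower than every control library, and the part of depth in the values of low genes was not tested. Values are read counts that the authors multiplied by 1 factor per library, called scaled read counts below. Dnmt1, the targeted methyltransferase gene, stood at 614, 539 and 655 in controls and at 74.6, 36.1 and 81.2 in knockouts (log2 fold change -3.29, SE 0.27, adjusted p = 0.00121, limma). Of the 8 satellite cell markers listed, all 8 were tested, and their summed level was 3325 to 3748 in controls and 2940 to 3411 in knockouts. Among them the transcription factor Pax7 fell (log2 fold change -0.85, adjusted p = 0.0441, limma), a call that ended when any library but control replicate 2 was left out (adjusted p up to 0.211). The other 7 did not pass, 4 with negative log2 fold changes, such as Myf5 (-0.77) and Myod1 (-0.35), and 3 with positive ones, Cdh15 (0.93), Sdc4 (0.35) and Itga7 (0.09), the last 3 named after their values were seen. Of 12591 genes tested with limma, 210 (1.67%) were higher and 12 (0.0953%) lower in the knockouts at an adjusted p of 0.05, or 1.76% in either direction. In its contractile genes control replicate 2 lay far from the rest, with a summed level of 12799 over 14 genes against 1153 and 794 in the other controls. In bulk samples such as these, fewer cells of a type and less RNA per cell cannot be told apart.

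Promoters of the Polycomb genes are dense in CpG, the sequence whose methylation Dnmt1 copies. RefSeq promoter windows of 300 bases (GRCm38.p6, 250 before to 50 after the start) were matched for all 10 genes, 14 windows in all. They held 17 to 49 CpG each, against a median of 7 over 32544 distinct windows, of which 34.9% held 15 or more. The Eed window, with 17, exceeded 68.4% of all windows. The windows of the catalytic pair and of Suz12 are shown because these genes had the smallest unadjusted p-values of the 10; capitals mark each CpG. The Ezh2 window (chr6:47594981-47595280, minus strand) held 31 CpG, the Ezh1 window (chr11:101226414-101226713, minus strand) 23 and the Suz12 window (chr11:79992856-79993155, plus strand) 41.
Ezh2: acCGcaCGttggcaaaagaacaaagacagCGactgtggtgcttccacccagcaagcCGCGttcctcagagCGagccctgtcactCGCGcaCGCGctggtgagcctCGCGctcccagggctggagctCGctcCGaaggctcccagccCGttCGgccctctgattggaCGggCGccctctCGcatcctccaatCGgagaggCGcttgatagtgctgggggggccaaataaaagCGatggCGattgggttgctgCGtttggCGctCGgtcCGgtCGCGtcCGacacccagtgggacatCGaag
Ezh1: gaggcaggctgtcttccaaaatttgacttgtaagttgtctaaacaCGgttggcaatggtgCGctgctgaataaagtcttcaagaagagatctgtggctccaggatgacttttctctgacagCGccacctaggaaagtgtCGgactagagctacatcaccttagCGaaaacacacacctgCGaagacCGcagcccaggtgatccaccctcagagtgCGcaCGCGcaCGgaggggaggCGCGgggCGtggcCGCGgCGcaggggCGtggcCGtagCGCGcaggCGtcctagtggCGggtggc
Suz12: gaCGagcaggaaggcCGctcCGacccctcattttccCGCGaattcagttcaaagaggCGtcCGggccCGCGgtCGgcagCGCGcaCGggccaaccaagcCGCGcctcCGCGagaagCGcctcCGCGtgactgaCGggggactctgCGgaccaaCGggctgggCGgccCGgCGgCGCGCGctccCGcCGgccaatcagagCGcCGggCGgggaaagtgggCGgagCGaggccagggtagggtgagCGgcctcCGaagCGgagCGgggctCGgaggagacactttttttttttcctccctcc

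The 14 windows were searched on both strands for 4 motifs of factors active at CpG-rich promoters, namely TTTGGCG and TTTCCCG (E2F), CCGGAAG (ETS) and GCGCATG, part of the NRF1 site. E2F factors switch on genes for DNA replication, and Ezh2 is a known E2F target. TTTGGCG occurred in the Ezh2 window, beginning at the transcribed base 4, and TTTCCCG in the Suz12 window, 219 bases before the start. They occur in 1.57% and 3.41% of all windows. No window of the other 8 genes held either, and CCGGAAG (8.91% of all windows) and GCGCATG (3.93%) were in none of the 14. These matches describe the letters only.

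Ezh2 and Ezh1 are the alternative catalytic subunits of PRC2. Ezh2 is the form of dividing cells, and Ezh1 is known as the more evenly expressed form that persists in resting and differentiated cells. The scaled read count of Ezh2 (chromosome 6, 47530274 to 47595030, mm10, 20 exons as listed) was 261, 245 and 269 in controls and 196, 156 and 224 in knockouts. Every knockout library lay below every control library. The means were 258 ± 12.3 and 192 ± 34.4 (SD, n = 3 each), a log2 fold change of -0.44 (SE 0.17, 95% interval -0.81 to -0.07), which did not pass the test over all genes (adjusted p = 0.236, limma).

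Ezh1 (chromosome 11, 101191115 to 101226450, 21 exons) lay the other way, at 16.05, 19.05 and 20.05 in controls and 27.2, 30.1 and 40.6 in knockouts. Here every knockout library lay above every control library. The means were 18.4 ± 2.08 and 32.7 ± 7.04 (SD, n = 3 each), with a log2 fold change of 0.78 (SE 0.28, 95% interval 0.17 to 1.40, adjusted p = 0.210, limma). These values rest on 16 to 33 reads per library, of which the 16 in control replicate 1 and the 30 in knockout replicate 2 are less certain. In reads before scaling, a count of 19, as in knockout replicate 1, has an exact 95% Poisson interval of 11.4 to 29.7. A count of 33, as in knockout replicate 3, has an interval of 22.7 to 46.3. Control replicate 3, the deepest library, had 29 reads, with an interval of 19.4 to 41.6 that overlaps both. The intervals cover counting error only, because reads may be copies of 1 molecule.

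**Figure D1:**
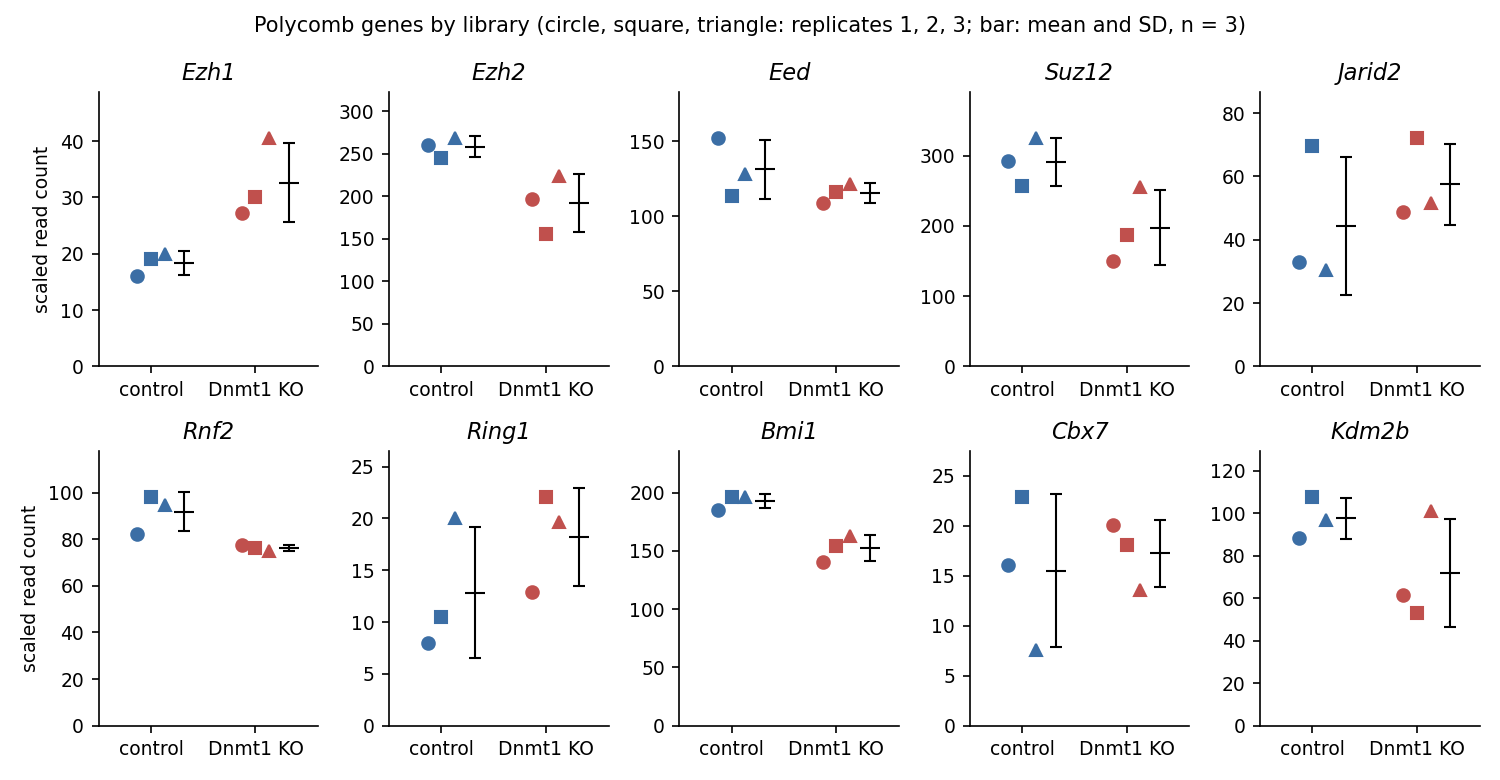
Scaled read count (vertical axes, from 0) of each of the 10 Polycomb genes in the 3 control (blue) and 3 Dnmt1 KO (red) libraries, with mean and SD beside the points. Ezh2, Suz12, Bmi1 and Rnf2 lie lower and Ezh1 higher in every knockout library than in any control, and the other 5 genes overlap.

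Set per length of exon, Ezh2 exceeded Ezh1 in every library, and by less in the knockouts. The ratio of scaled counts per kb, Ezh2 over Ezh1, was 25.6, 20.2 and 21.1 in controls and 11.3, 8.12 and 8.67 in knockouts. The groups did not overlap. Ezh1 made up 4.34% ± 0.503 of the pair's sum per kb in controls and 9.80% ± 1.501 in knockouts (SD, n = 3 each), while the sum itself was 101.2 ± 4.68 and 79.8 ± 14.1. The difference of log2 Ezh1 minus log2 Ezh2 moved from -3.75 ± 0.17 to -2.52 ± 0.25, a shift of 1.22 on the log2 scale that was higher in 3 of 3 knockouts. A two-sided exact permutation test over the 6 libraries gave p = 0.1, the smallest this test allows with 3 against 3, so it cannot reach 0.05 here. With each library left out in turn the shift was 1.12 to 1.36.

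**Figure D2:**
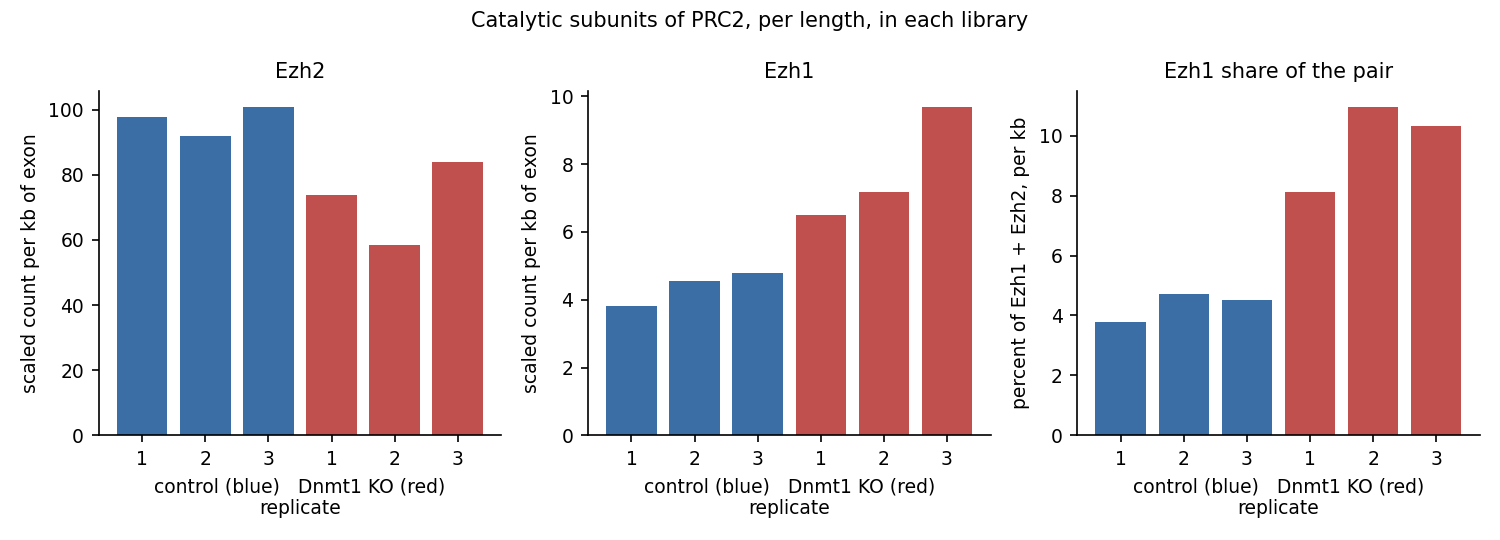
Scaled count per kb of exon of Ezh2 (left) and Ezh1 (middle), and Ezh1 as a percent of their sum (right), in each control (blue) and Dnmt1 KO (red) library. The Ezh1 share is 3.77 to 4.72% in controls and 8.10 to 11.0% in knockouts, and Ezh2 remains the more abundant of the pair in all 6 libraries.

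Suz12 and Eed are the structural subunits without which PRC2 has no activity. Suz12 (chromosome 11, 79993106 to 80034123, 16 exons) stood at 292, 257 and 326 in controls and 151, 187 and 256 in knockouts. The groups did not overlap, though knockout replicate 3, at 256, lay just under control replicate 2, at 257. Its means were 292 ± 34.3 and 198 ± 53.6 (SD, n = 3 each) and its log2 fold change of -0.59 (SE 0.20, 95% interval -1.04 to -0.14) had the smallest adjusted p of the 10 genes, 0.200 with limma.

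Eed (chromosome 7, 89954654 to 89980976, 12 exons), which binds trimethylated H3K27, was at 152, 113 and 129 in controls and 109, 116 and 122 in knockouts. The groups overlapped, and the log2 fold change was -0.17 (95% interval -0.54 to 0.20, adjusted p = 0.657, limma). Without control replicate 2, its lowest control, it was -0.27 (adjusted p = 0.402), and without control replicate 1, its highest, -0.06 (adjusted p = 0.944). Per kb, Suz12 stood at 1.05 ± 0.146 times Eed in controls and at 0.799 ± 0.174 times in knockouts (SD, n = 3 each). The highest knockout ratio, 0.990, lay above the lowest control ratio, 0.902.

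Jarid2, an accessory subunit that helps recruit PRC2 to its targets, lies on chromosome 13 at 44730774 to 44921643 (19 exons). It was at 33.1, 69.5 and 30.4 in controls and 48.7, 72.2 and 51.7 in knockouts. Control replicate 2, which stood apart in contractile genes, was above 2 of the 3 knockouts, and knockout replicate 2 was the highest of all. The log2 fold change was 0.45 (95% interval -0.27 to 1.17, adjusted p = 0.539, limma). Without control replicate 2 the groups did not overlap and the log2 fold change was 0.82 (adjusted p = 0.0848). With each other library left out it was 0.23 (without control replicate 3, adjusted p = 0.864) to 0.56 (without knockout replicate 1, adjusted p = 0.557), and with edgeR on 4 libraries it was 0.01. The part of the contractile genes in this result was not tested.

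Rnf2 (RING1B) and Ring1 are the alternative ubiquitin ligases of PRC1. Rnf2 (chromosome 1, 151469406 to 151500823, 7 exons) was at 82.3, 98.1 and 94.7 in controls and 77.4, 76.3 and 75.1 in knockouts. The knockouts were all lower and close together, with means of 91.7 ± 8.34 and 76.2 ± 1.18 (SD, n = 3 each). The log2 fold change of -0.26 did not pass (SE 0.17, 95% interval -0.63 to 0.11, adjusted p = 0.493, limma). Ring1 (chromosome 17, 34020792 to 34024680, 7 exons) was at 8.03, 10.5 and 20.05 in controls and 12.9, 22.1 and 19.7 in knockouts, from 8 to 29 reads per library. Its groups overlapped, and the log2 fold change was 0.54 (95% interval -0.36 to 1.43, adjusted p = 0.557, limma). Control replicate 3 was the high control, and without it the value was 0.88 (adjusted p = 0.482), while without control replicate 1, the lowest control, it was 0.27 (adjusted p = 0.875). With edgeR on 4 libraries it was 0.08. Per kb, Rnf2 exceeded Ring1 by 5.45 ± 1.99 times in controls and 2.97 ± 0.926 times in knockouts (SD, n = 3 each). The ratios overlapped between the groups, from 3.17 to 6.89 in controls and from 2.32 to 4.03 in knockouts.

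Bmi1 (PCGF4), the partner that activates the RING subunit of canonical PRC1 and restrains the Cdkn2a locus, lies on chromosome 2 at 18677018 to 18686629 (10 exons). It was at 186, 196 and 196 in controls and 141, 155 and 162 in knockouts. All knockouts were lower, with means of 193 ± 6.17 and 152 ± 11.1 (SD, n = 3 each) and a log2 fold change of -0.34 (SE 0.14, 95% interval -0.65 to -0.02, adjusted p = 0.288, limma). Of its words of 50 bases, 16.7% occur in transcripts of other genes, with Gm5946 sharing more of them than any other gene, so reads could be split between copies.

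Cbx7, the chromodomain subunit that reads H3K27 methylation for canonical PRC1, lies on chromosome 15 at 79915807 to 79932646 (7 exons). It was at 16.05, 22.9 and 7.61 in controls and 20.1, 18.1 and 13.5 in knockouts, from 11 to 24 reads. The groups overlapped fully, with a log2 fold change of 0.25 (95% interval -0.68 to 1.17, adjusted p = 0.817, limma). The sign turned without control replicate 3, the lowest library, to -0.16 (adjusted p = 0.925).

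Kdm2b, whose zinc finger binds unmethylated CpG and brings variant PRC1 to CpG islands, lies on chromosome 5 at 122870675 to 122989092 (25 exons). It was at 88.3, 108 and 96.8 in controls and 61.7, 53.2 and 101 in knockouts. Knockout replicates 1 and 2 were below all controls and knockout replicate 3 was among them. The log2 fold change was -0.48 (95% interval -1.02 to 0.05, adjusted p = 0.377, limma), with -0.75 without knockout replicate 3 (adjusted p = 0.155) and -0.30 without knockout replicate 2 (adjusted p = 0.740). Transcripts of other genes share 5.90% of its 50-base words, and no other gene in the table overlaps any of the 10.

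Over the 10 genes, 0 passed the test over all genes with limma, where 1.76% of all genes tested did. With limma, 4 had an unadjusted p under 0.05, against 15.5% of all genes. The tests on recovered reads of 4 libraries called 0 of the 10 as well, with edgeR calling 0.0636% and DESeq2 0.289% of the genes they tested. Groups did not overlap for 5 of the 10, of which 4 were lower and 1 higher, while 7.81% of all genes tested were lower, 13.4% higher and 21.2% either without overlap. The median log2 fold change was -0.22 for the 10 genes and 0.02 for all genes tested, whose quartiles were -0.24 and 0.38. In the authors' deposited table the smallest q-values were 0.429 for Ezh1, 0.507 for Suz12 and 0.807 for Ezh2, and the other 7 genes had 1.

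**Figure D3:**
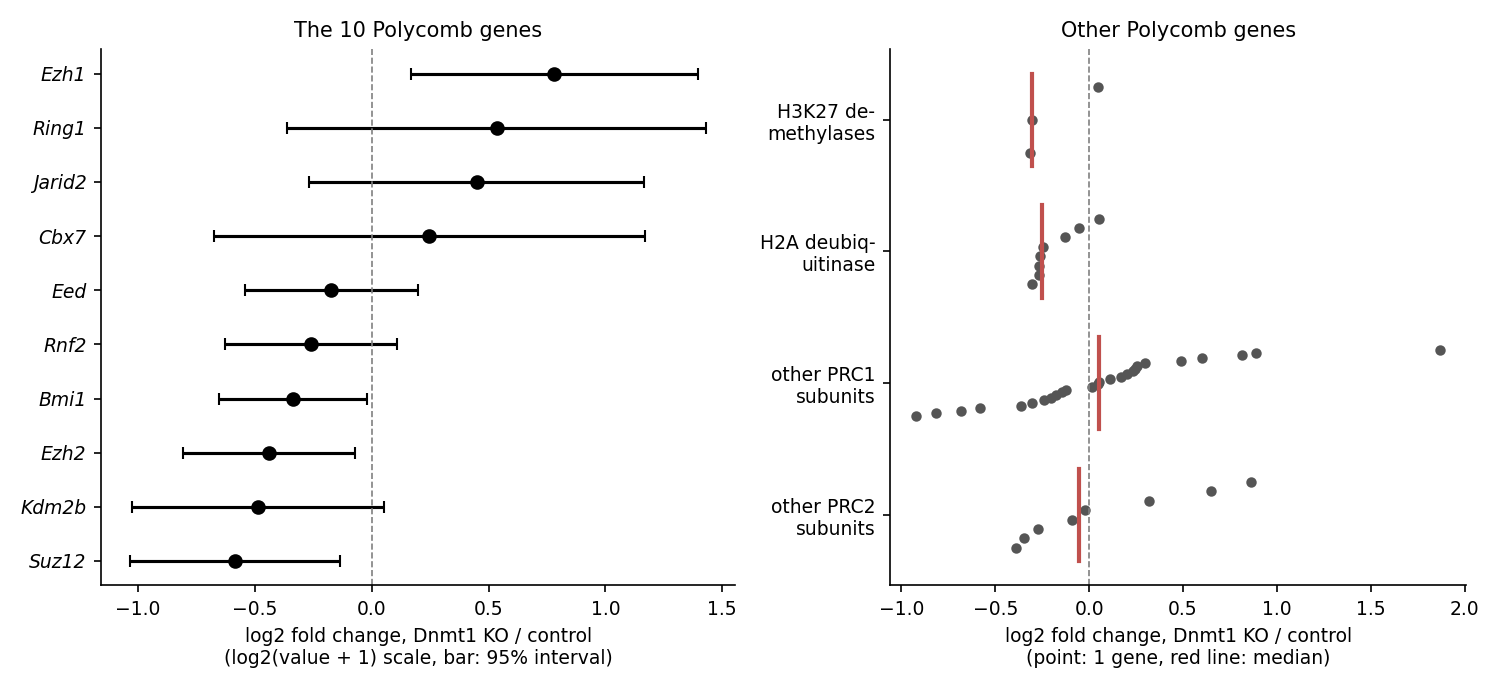
Log2 fold change of each of the 10 Polycomb genes with its 95% interval (left) and of the other Polycomb genes by list, 1 point a gene with the median in red (right). The intervals of Ezh1, Bmi1, Ezh2 and Suz12 leave out 0, but none of the genes shown passed the test over all genes.

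Levels per kb of exon ranked the 10 genes over a wide range. In controls Ezh2 was highest at 96.8 ± 4.62, followed by Suz12 at 66.7 ± 7.84, Eed at 63.8 ± 9.58, Bmi1 at 53.6 ± 1.72, Rnf2 at 30.3 ± 2.75 and Kdm2b at 17.96 ± 1.78 (SD, n = 3 each). The lowest were Jarid2 at 7.20 ± 3.55, Ring1 at 6.32 ± 3.12, Cbx7 at 5.36 ± 2.64 and Ezh1 at 4.38 ± 0.496. The ranges of mean ± SD overlapped between Suz12 and Eed, between Eed and Bmi1, and among the lowest 4. In knockouts Ezh2 was still first at 71.98 ± 12.9, Eed (56.2 ± 3.14) stood above Suz12 (45.2 ± 12.3) by less than their spread, and Cbx7 was last at 5.95 ± 1.16, below Ezh1 at 7.79 ± 1.68.

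Genes of dividing cells were measured beside the Polycomb genes. The 12 listed, among them Cdk1 and Ccna2, which drive entry into mitosis, summed to 7090, 6305 and 7393 in controls and 5979, 4481 and 6508 in knockouts. Of the 12, 0 were called with limma (3 had an unadjusted p under 0.05, against 15.5% of all genes tested). All 12 log2 fold changes were negative, with a median of -0.36, where 47.6% of all genes had a negative one. Groups did not overlap for 6, all lower, against 7.81% of all genes. For Cdk1 the log2 fold change was -0.49 (adjusted p = 0.236), and for Ccna2 it was -0.41 (adjusted p = 0.267). These had the smallest p-values of the list. Mki67 and E2f1, named after their values were seen, hardly differed. Mki67 had means of 811 and 808 (-0.02, adjusted p = 0.979, limma), and E2f1 a log2 fold change of -0.08 (adjusted p = 0.883). Knockout replicate 2, the lowest for Ezh2, was the lowest for this list too.

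When each value was taken relative to the mean log2 level of the 12 genes in its own library, a measure chosen after the values were seen and not tested, the groups overlapped for Ezh2, Suz12, Bmi1 and Rnf2. Relative Ezh2 was -0.58, -0.46 and -0.59 in controls and -0.76, -0.58 and -0.60 in knockouts, a difference of means of -0.10. The differences were -0.25 for Suz12, 0.00011 for Bmi1 and 0.08 for Rnf2. For Suz12, knockout replicate 1 alone, at -1.14, lay below the range of -0.42 to -0.31 of the controls. Relative Ezh1 remained without overlap, at -4.52, -4.08 and -4.27 in controls and -3.56, -2.91 and -3.04 in knockouts. The list mean itself was 8.62, 8.40 and 8.67 in controls and 8.38, 7.87 and 8.42 in knockouts. Taking it off therefore raised the difference of means of every gene by the same amount. This shift follows from the arithmetic, and no cause was tested. For Ezh2 the overlap was narrow, with knockout replicate 2 at -0.581 and control replicates 1 and 3 at -0.584 and -0.589.

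**Figure D4:**
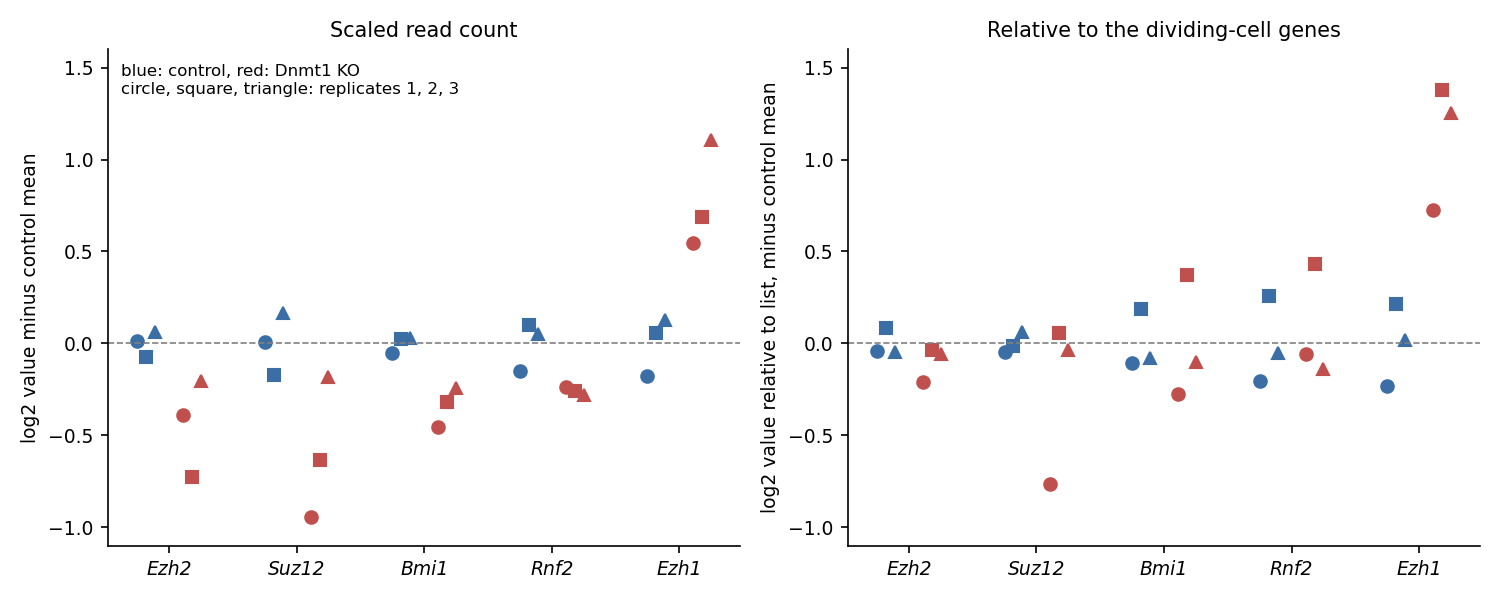
Log2 value of 5 Polycomb genes in each library, set to the mean of the controls, as deposited (left) and relative to the mean of the 12 dividing-cell genes of the same library (right); blue is control and red Dnmt1 KO, with 1 point a library. Ezh2, Suz12, Bmi1 and Rnf2 separate on the left and overlap on the right, and Ezh1 separates in both. The list mean was lower in the knockouts on average, so on the right every gene is raised there by the same average amount.

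Contractile genes, which mark differentiating muscle cells, summed to 5196, 4789 and 1681 in the knockouts, between the 2 low controls and control replicate 2. Of 13 tested, 0 passed with limma (0 at an unadjusted p under 0.05), with Tnnc2 (log2 fold change 2.15, adjusted p = 0.351) and Tnni2 (1.15, adjusted p = 0.397) having the smallest p-values. Log2 fold changes were positive in 11 and negative in 2, with a median of 0.59, where 52.4% of all genes tested had a positive one. The part of the contractile genes in the values of Ezh1 was not tested. Without control replicate 2 the log2 fold change of Ezh1 was 0.81 (adjusted p = 0.159, limma).

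Markers of other cell types differed in level between lists. The 6 endothelial markers, of which 4 were tested and Tie1 was at 0 throughout, summed to 2.86 to 13.0 in controls and 7.38 to 11.5 in knockouts. With limma 0 were called, and 1 had an unadjusted p under 0.05 (Tek, log2 fold change 1.45, adjusted p = 0.230), followed by Kdr (-0.77, adjusted p = 0.501). Tek lay near the floor, at 0, 0 and 0.69 in controls and 1.43, 2.01 and 3.69 in knockouts. It met the filter on low values only through the knockouts. The 8 leukocyte markers summed to 21.9 to 36.1 in controls and 71.4 to 188 in knockouts, while the defining genes Ptprc, Cd3e and Emr1 were at 0 in all 6 libraries. Of 2 tested, Laptm5 rose (1.92, adjusted p = 0.0391) and Cd68 (1.37, adjusted p = 0.219) did not pass. The 8 markers of fibro-adipogenic progenitors summed to 379 to 694 and to 704 to 1135, with Lum at 0 throughout and Pdgfra at 0.952 to 9.03 and 1.23 to 8.60. Of 6 tested, Col1a1 (2.28, adjusted p = 0.0476) and Gsn (2.20, adjusted p = 0.0431) rose, while Ly6a (0.95) and Col3a1 (0.31) did not pass. Leaving out any library other than control replicate 2 ended the calls of Laptm5, Col1a1 and Gsn, with adjusted p up to 0.131, 0.232 and 0.206. Pericyte and smooth muscle genes summed to 239.9 to 1231 and to 439 to 1047, with Kcnj8 at 0 throughout and log2 fold changes of 1.41 for Cspg4 and 0.52 for Acta2. Of 2 tested, 0 were called with limma, and 1 had an unadjusted p under 0.05. The part of any of these markers in the values of the Polycomb genes was not tested.

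Beyond the 10 genes, 46 further Polycomb genes were listed, of which 45 were tested. With limma 0 were called in either direction, and 5 had an unadjusted p under 0.05; edgeR and DESeq2 on 4 libraries also called 0. Log2 fold changes were positive in 20 and negative in 25, with a median of -0.09 against 0.02 for all genes tested. Groups did not overlap for 3 higher and 7 lower genes, or 22.2% of the 45, close to the 21.2% of all genes.

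Among the 8 tested accessory subunits of PRC2 the median log2 fold change was -0.06. Mtf2, which binds unmethylated CpG and steers PRC2 there, was at 127, 107 and 113 in controls and 88.9, 100.3 and 83.7 in knockouts, a log2 fold change of -0.35 (adjusted p = 0.355, limma). The histone chaperone Rbbp4 averaged 811 ± 84.9 and 672 ± 82.8 in the respective groups (-0.27, adjusted p = 0.438).

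Among 26 further PRC1 genes, 15 log2 fold changes were positive and 11 negative, with a median of 0.05. Bcor, the corepressor of variant PRC1 with PCGF1, was at 89.3, 117 and 106 in controls and 60.2, 60.2 and 72.6 in knockouts. All knockouts were lower (-0.68, SE 0.18, adjusted p = 0.108, limma). Scmh1, a Polycomb protein with MBT repeats, was at 17.1, 31.4 and 31.8 in controls and 45.9, 58.2 and 43.1 in knockouts, higher in all (0.89, SE 0.29, adjusted p = 0.180).

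Of the complex that removes ubiquitin from H2A, 7 of 8 log2 fold changes were negative, where 47.6% of all genes had a negative one. Their median was -0.25. The 7 include Asxl3, at 0 to 2.86 over the libraries, and Foxk1 (-0.05, adjusted p = 0.930, limma), both named after their values were seen. Its catalytic subunit Bap1 averaged 168 ± 2.67 and 142 ± 7.45 in controls and knockouts (-0.24, adjusted p = 0.449), and the scaffold Asxl2 had 145 ± 20.9 and 117 ± 13.0 (-0.31, adjusted p = 0.433). The demethylases that erase H3K27 methylation, Kdm6a (66.5 ± 4.40 and 53.6 ± 7.69, log2 fold change -0.31, adjusted p = 0.479) and Kdm6b (67.8 ± 4.74 and 55.1 ± 7.96, -0.30, adjusted p = 0.493), were lower in each knockout library than in any control without passing the test. Of all genes tested, 7.81% were lower without overlap. The third, the Y-linked Uty, named after its values were seen, overlapped between the groups (0.05, adjusted p = 0.954).

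Developmental regulators that Polycomb silences in stem cells and many tissues were counted by their detection. Of 30 such genes, 7 were above 0 in all 6 libraries, 2 had a mean over 50 in a group, 10 were at 0 in all 6 libraries and 16 in all controls. Of these 16, 6 had reads in some knockout library, though 0 of them had reads in every one. Conversely, 12 were at 0 throughout the knockouts, of which 2 had reads in a control. Over all genes in the table, 12484 to 12940 were above 0 in a control library and 12750 to 13387 in a knockout library. With limma, 1 of the 11 tested rose and 0 fell, beside 1.67% and 0.0953% of all genes tested. Of the 11 log2 fold changes 10 were positive, where 52.4% of all genes had a positive one. Some of the 11 lay near the floor. Gata4, Eomes, Bmp2 and Twist1, named after their values were seen, had group means of 0.33 to 3.04. Each of these met the filter on low values mainly through its knockout values. A single read stood at 0.952 and 0.691 in control replicates 2 and 3, under the filter of 1. It stood at 1.43 and 1.23 in knockout replicates 1 and 3. The count of positive log2 fold changes thus depends in part on the filter.

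The riser was Cyp26b1, an enzyme that degrades retinoic acid, at 19.1, 14.3 and 11.8 in controls and 74.6, 89.3 and 54.1 in knockouts. Its means were 15.03 ± 3.71 and 72.7 ± 17.6 (SD, n = 3 each), a log2 fold change of 2.20 (SE 0.28, adjusted p = 0.00668, limma). The call was lost when knockout replicate 1 (adjusted p = 0.0630) or knockout replicate 2 (adjusted p = 0.0603) was left out. On the reads of 4 libraries it passed neither with edgeR (adjusted p = 0.142) nor with DESeq2 (adjusted p = 0.0501). The T-box genes Tbx15 (0.97, adjusted p = 0.298) and Tbx3 (0.63, adjusted p = 0.366) did not pass. Cdkn2a, the cell cycle inhibitor locus and a textbook Polycomb target, named after its values were seen, was at 11.0, 12.4 and 14.5 in controls, against 10.04, 19.1 and 6.15 (-0.22, adjusted p = 0.841).

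The genes whose log2 values over the 6 libraries were most like those of Ezh2, among 5295 with a mean of at least 50, were Skp2, a ubiquitin ligase subunit of the cell cycle (Pearson r = 0.999), the mitotic kinesin Kif22 (r = 0.998) and the mitochondrial ribosomal gene Mrpl50 (r = 0.997). Skp2 was at 166, 151 and 173 in controls and 108, 80.3 and 132 in knockouts. Its libraries stood in the same order as those of Ezh2, highest in control replicate 3 and lowest in knockout replicate 2. For Ezh1 they were the chaperone gene Dnajc3 (r = 0.987), the ubiquitin ligase gene Rnf216 (r = 0.982) and Gtse1 (r = 0.977). With 6 libraries such values are common: 90 genes came within 0.05 of the highest r for Ezh2 and 19 for Ezh1. All genes share the libraries and their scaling, so r is a description only.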

How the data were processed

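TopHat alignment to mm10 and counting per gene by featureCounts are named in the submitters' processing notes (versions, annotation, strand setting and scaling method not given in the sources used here). Libraries came from a stranded kit, per the labels' protocols. The authors deposited a signal per gene and library, a read count multiplied by 1 factor per library. In each library 100% of values, divided by the smallest one above 0, came out whole within 0.001, which gave the reads. The authors also deposited a p-value and a q-value per gene, from a test of theirs not named here, and the exon length in bases.

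Values were compared as log2(value + 1) with limma 3.58.1 (R 4.3.3, intensity trend, Benjamini-Hochberg over all 12591 genes reaching 1 in 3 or more libraries, threshold 0.05), 3 Dnmt1 KO against 3 controls. A fold change on this scale understates that of low genes. Adjusted p-values are from this test unless another is named. Alternatives were 3 scalings, 2 filters, a pseudocount of 0.1, a replicate block, each library left out, and edgeR 4.0.16 and DESeq2 1.42.0 on the reads of 4 libraries, 2 per group (control replicates 2 and 3, knockout replicates 1 and 3), whose smallest values could be taken as single reads by a stricter check. For the other libraries, control replicate 1 and knockout replicate 2, that value was 1.00, too near a whole number for the check, so their read numbers rest on the whole-multiple rule alone. The scripts were tested on simulated data. The members, lists and rules were chosen with earlier results of these data known. Named are the 10 members, Dnmt1, the called members and the 2 smallest p-values among the others of each list, and the 3 genes most like Ezh1 and Ezh2; 1 marker list is not reported here. Older symbols matched 3 list members. Words of 50 bases come from GENCODE M21 transcripts. The authors' means, fold changes and ranks were not used.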

Additional observations from a re-analysis of the deposited data

How the results depend on the processing

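None of the 10 Polycomb genes, and none of the other Polycomb genes tested, was called under any of the 15 other settings, and of 150 alternative values for the 10 genes 148 kept their direction. The exceptions were Cbx7 without control replicate 3 (log2 fold change -0.16, in a range up to 0.57 with 1 library left out) and Jarid2 with DESeq2 on 4 libraries (-0.016). The lowest adjusted p was 0.0599, for Suz12 with the replicate block. The shift of log2 Ezh1 minus log2 Ezh2 stayed between 1.12 and 1.36 over 11 settings, each too small to pass a permutation test. The number of genes called was 222; it was 127 with a pseudocount of 0.1, 435 with the replicate block, 6 with edgeR and 34 with DESeq2 on 4 libraries, and 13 (without knockout replicate 1) to 773 (without control replicate 2) with 1 library left out. The 4-library tests had fewer samples; the cause of the other moves was not tested. Replicate numbers are shared between the groups. The deviations of same-numbered libraries had correlations of -0.06, 0.22 and 0.31, and those of differently numbered ones -0.36 to 0.19. Whether the numbers pair the samples is thus not settled. The replicate block changed no call among the Polycomb genes. It lowered the adjusted p with limma of Suz12 from 0.200 to 0.0599 and of Ezh2 from 0.236 to 0.0897. The difference of the Ezh pair with the replicate block had an exact permutation p = 0.25, the smallest that 3 pairs allow. Other scalings shifted the median of all genes by less than 0.1 on the log2 scale. At 8 to 33 reads per library, Ezh1, Ring1 and Cbx7 are limited by counting error.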
